A study of Mus musculus with 18 samples.

Results

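The growth hormone and IGF axis was represented by 9 genes, Ghr, Stat5b, Socs2, Igf1r, Igf1, Igfals, Igfbp1, Igfbp2 and Igfbp4, which a rule takes by name from the 55450 genes of the GENCODE M21 annotation (mouse genome build GRCm38). Peaks of RNA on the strand of these genes were compared in total liver RNA of editing-deficient mice (Adar-/-; Mavs-/-) and of Mavs-/- mice, the controls, which the sample titles call wild-type. All mice were 8 to 9 days old and lacked Mavs, the adaptor through which the RNA sensor MDA5 signals. The double mutants, which in addition lacked the RNA-editing enzyme ADAR1, came from intercrossing both mutant strains and backcrossing to Bl6J. Each genotype had 3 replicates of 3 fractions, which were untreated total RNA (Input), RNA digested with RNase A/T1 (RNase only), and RNA digested after incubation with a recombinant MDA5 that lacks its CARD domains (MDA5-protected). The study describes biological triplicates, but the labels tie no library to an animal, so the p-values measure the spread between these libraries.

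Growth hormone from the pituitary binds its receptor on the hepatocyte, and the kinase JAK2 then activates the transcription factor STAT5B. STAT5B turns on the gene of insulin-like growth factor 1, that of its carrier the acid-labile subunit, and that of the feedback inhibitor SOCS2. In blood most IGF1 travels in a ternary complex with the acid-labile subunit (Igfals) and an IGF-binding protein, and other binding proteins hold smaller pools. Igfbp1 in the liver is known to rise on fasting and to be held down by insulin. In mice the liver takes over as the main source of circulating IGF1 in the weeks after birth.

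Of the 9 genes, 8 had an own-strand peak in at least 1 of the 18 libraries. In Input RNA 8 genes had a peak, whereas 3 genes had one after digestion with RNase only (Ghr, Stat5b and Socs2) and 3 had one in the MDA5-protected fraction (Ghr, Igfbp2 and Stat5b). Igf1r, the receptor of IGF1 (chr7:67952827-68233668), was without a peak in all 18 libraries, although its introns (264051 bases) are about as long as those of Ghr (256680 bases). Igf1, Igfals, Igfbp1 and Igfbp4 had Input peaks but no peak in either digested fraction.

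A level is given here as the summed area of a gene's own-strand peaks that touch an exon, in parts per 1000000 (ppm) of the area of all peaks of that library. The area grows with the height, the width and the significance of a peak, so a level is not a read count, and the read depth behind a peak is unknown. The Input libraries of editing-deficient liver held 6991 to 8948 peaks and those of Mavs-/- liver 4326 to 6625. A single peak of the minimum area of 500 was therefore worth 46.6 to 53.7 ppm in editing-deficient and 63.0 to 89.2 ppm in Mavs-/- Input libraries, and a gene without a peak may be transcribed below that floor. Genes with a peak in at least 3 of the 6 Input libraries were tested on log2(level + 10) with limma, and p-values were adjusted over all 3036 genes tested. Of these genes 329 (10.8%) were called higher and 206 (6.79%) lower in editing-deficient liver at an adjusted p under 0.05, and leaving out Mavs-/- replicate 3 raised the calls from 535 to 877. The median log2 difference of the genes tested was 0.46, and that of the genes with a peak in all 6 libraries was -0.22. Of the 9 axis genes 7 were tested, of which 1 was called higher, 2 lower and 4 were not called. For how many of all genes tested the Input levels of the genotypes do not overlap was not counted. Where this is stated for a gene below, it describes the values of that gene only.

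All 8 hepatocyte markers had a peak in all 6 Input libraries, and their summed level was 20519 to 26146 ppm in editing-deficient and 25430 to 36754 in Mavs-/- libraries. The summed level of stellate cell markers (4 of 5 with a peak, Lrat with none) was 377 to 1204 in editing-deficient and 3450 to 4899 in Mavs-/- libraries. That of erythroid markers (7 of 7 with a peak) was 1399 to 2942 and 6522 to 8367, respectively. Kupffer cell markers (6 of 7 with a peak, Adgre1 with none) summed to 1532 to 1910 and 1709 to 1777, markers of sinusoidal endothelium (4 of 5, Pecam1 with none) to 362 to 529 and 0 to 372, and cholangiocyte markers (1 of 5, with Krt19, Krt7, Epcam and Sox9 at 0) to 0 to 52.5 and 0 to 303. In liver RNA, fewer cells of a type and less RNA per cell cannot be told apart, and the part of these shifts in the results below was not tested. Mavs had no peak in any library. Adar had an Input peak in editing-deficient replicates 2 and 3 and in no Mavs-/- library. Which exons the mutant Adar allele lacks is not given in the sources used here, so these peaks do not check the labels.

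**Figure D1:**
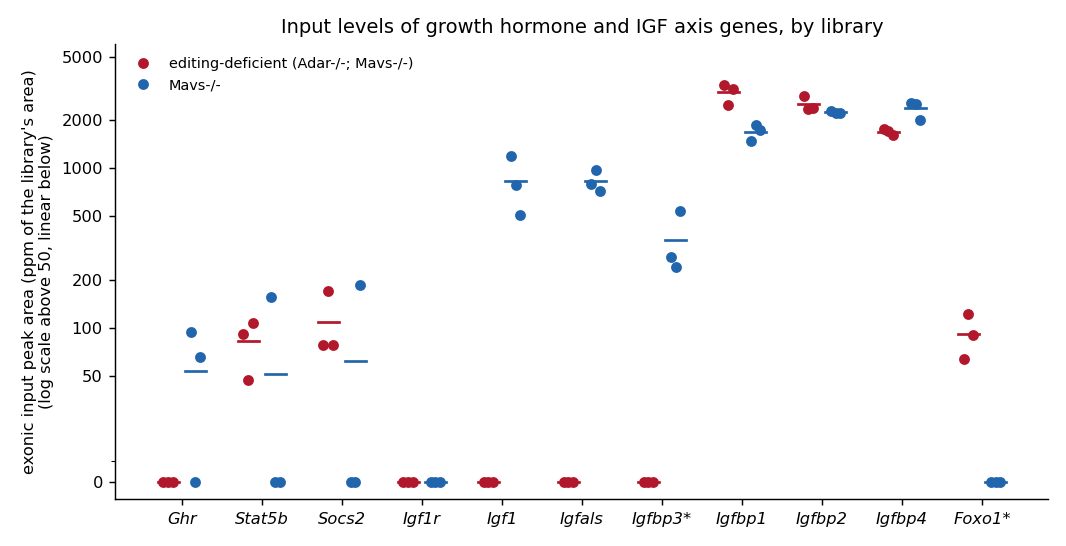
Input level of each gene in each library (exonic peak area in ppm, log scale above 50 and linear below), with editing-deficient libraries in red and Mavs-/- libraries in blue and the mean of each group of 3 as a line. Igf1, Igfals and Igfbp3 are at 0 in all 3 editing-deficient libraries. Igfbp1 (called) and Igfbp2 (not called) lie higher and Igfbp4 (not called) lower there, and the asterisks mark genes of the wider axis list.

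The genes of circulating IGF1 and its acid-labile carrier had Input peaks in the Mavs-/- libraries and none in the editing-deficient libraries. Igf1 encodes the growth factor itself (chr10:87858265-87937042, plus strand). Its Input level in the 3 Mavs-/- libraries was 1193, 786 and 509 ppm from 7, 4 and 4 peaks, and no editing-deficient library had an Igf1 peak on any exon or intron. The groups did not overlap, with a mean of 829 ± 344 ppm (SD, n = 3) in Mavs-/- liver. The fitted log2 difference was -6.31 (SE 0.52), with a limma adjusted p of 0.0023. The 15 Igf1 peaks behind the Mavs-/- levels had areas of 501 to 2897, where a peak needed at least 500. The peak over exon 3 had areas of 1069, 1173 and 853 in the 3 Mavs-/- libraries. A fall smaller than the fitted one could therefore also leave Igf1 without a peak, and these lists do not give its size.

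Igfals, which encodes the acid-labile subunit (chr17:24865997-24882010, plus strand), had a level of 793, 971 and 714 ppm in the Mavs-/- libraries, with a mean of 826 ± 132 (SD, n = 3). No editing-deficient library had an Igfals peak. Its log2 difference was -6.37 (SE 0.44), with a limma adjusted p of 0.0023. Igf1 and Igfals entered the test only through the 3 Mavs-/- libraries in which they had peaks, so among tested genes they had to differ and these p-values give no support of their own. The size of a fitted difference from a group at 0 depends on the pseudocount. With all 5274 genes that had a peak in any Input library tested, the limma adjusted p was 0.0091 for Igf1 and 0.0071 for Igfals. Both genes entered this wider test, too, only through the Mavs-/- libraries, so it is not free of that selection. An exonic peak in all 3 Mavs-/- and in no editing-deficient Input library was found for 44 of the 5274 genes with any exonic Input peak (0.834%), Igf1 and Igfals among them. Over the alternative settings the log2 difference lay between -9.61 and -2.96 for Igf1 and between -9.68 and -3.00 for Igfals.

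The peaks of both genes lay on exons. All 3 Mavs-/- libraries had a peak over exon 3 of Igf1, which codes for part of the hormone, and peaks over the last exon, from the end of the coding sequence into the 3′ UTR. Replicate 1 alone had a peak over exon 1 and replicate 2 alone over exon 2. Peaks covered 35.3%, 17.3% and 18.9% of the exonic bases of Igf1, and 60.6%, 62.8% and 60.0% of those of Igfals, where they lay on the large second exon. An antisense gene, Igf1os, overlaps the start of Igf1 on the opposite strand, and peaks had been called strand by strand. The following coding stretches were under a peak in every Mavs-/- Input library and in no editing-deficient one (annotated transcripts, build GRCm38, plus strand, 5′ to 3′, no base marked). They are the first such coding stretch of at least 100 bases in each gene, and the Mavs-/- libraries also shared peaks further downstream. They are printed to show where the control libraries have signal in common. The Igf1 stretch lies at chr10:87913619-87913800 in exon 3 (182 bases, 57.1% G or C) and the Igfals stretch at chr17:24880079-24880310 in exon 2 (232 bases, 57.8% G or C).
Igf1 exon 3: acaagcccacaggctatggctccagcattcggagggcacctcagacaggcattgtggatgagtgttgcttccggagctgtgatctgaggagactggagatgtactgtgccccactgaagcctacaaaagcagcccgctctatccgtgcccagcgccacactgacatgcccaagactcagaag
Igfals exon 2: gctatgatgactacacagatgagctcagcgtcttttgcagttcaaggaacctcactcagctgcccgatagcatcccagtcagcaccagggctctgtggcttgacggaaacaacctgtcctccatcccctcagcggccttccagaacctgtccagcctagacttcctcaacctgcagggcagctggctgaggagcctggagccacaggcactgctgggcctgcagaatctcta

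RefSeq promoter windows (build GRCm38.p6) were matched for 8 of the 9 genes, with 13 windows in all. The 250 bases before each start were searched on both strands for TTCNNNGAA, the palindrome that STAT5 binds, and for CAAAACA, a core of the insulin response sequence that FOXO factors bind, and no match of one motif overlapped the other. TTCNNNGAA was present in 7.02% and CAAAACA in 5.56% of all 32851 windows. Among the windows of the 9 genes, 3 held a motif. TTCNNNGAA was found in 2 of the 3 windows of Igfals, and CAAAACA in the window of Igfbp1. Printed below, with the match in capitals (plus strand, 5′ to 3′), are windows of the called genes that hold a motif. For Igfals, called lower, it is the window nearest to the start of the annotated transcript used for exon numbers (chr17:24877981-24878230, match 58 bases before the RefSeq start). The other Igfals window with a match (chr17:24877594-24877843) is not printed. Igfbp1, called higher, had a single window (chr11:7197537-7197786, match 108 bases before the RefSeq start). Igf1, also called lower, had neither motif in its single window, whose start lay 2043 bases from that of its transcript. Socs2 had no window. The matches therefore do not follow the calls gene by gene. A match describes letters only and shows no binding.
Igfals promoter: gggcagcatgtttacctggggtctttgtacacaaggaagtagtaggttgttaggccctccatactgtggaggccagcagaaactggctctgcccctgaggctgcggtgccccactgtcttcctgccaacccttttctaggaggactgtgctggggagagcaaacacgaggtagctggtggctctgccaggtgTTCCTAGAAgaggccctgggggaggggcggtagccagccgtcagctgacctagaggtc
Igfbp1 promoter: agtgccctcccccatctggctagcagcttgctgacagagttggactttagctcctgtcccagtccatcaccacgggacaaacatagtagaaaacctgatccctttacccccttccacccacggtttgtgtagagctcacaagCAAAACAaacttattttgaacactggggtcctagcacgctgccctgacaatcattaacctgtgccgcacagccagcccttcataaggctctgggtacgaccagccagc

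Of the 3 binding protein genes, 1 was called. Igfbp1 (chr11:7197782-7202546, plus strand), whose product binds IGF1 outside the ternary complex, was the 1 gene of the 9 called higher. Its level was 3337, 2491 and 3133 ppm in the editing-deficient libraries and 1486, 1866 and 1723 in the Mavs-/- libraries. The groups did not overlap, with means of 2987 ± 442 and 1692 ± 192 (SD, n = 3 each). The log2 difference was 0.81 (SE 0.16), 1.76-fold, with a limma adjusted p of 0.0181. The call was made in 11 of 17 alternative settings, whose adjusted p ranged from 0.00398 to 0.307. It was lost without editing-deficient replicate 1 or 3 or without Mavs-/- replicate 1 (limma adjusted p = 0.0600, 0.0727 and 0.0634), with log2 differences of 0.73, 0.77 and 0.72. It was also lost with the replicate number as a block (limma adjusted p = 0.0603), and the difference turned to -5.04 (limma adjusted p = 0.111) when the middle base of a peak had to lie in an exon, since long peaks over introns then do not count.

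The shape of the Igfbp1 signal differed along with its area. In editing-deficient replicate 1 a single peak of 5333 bases (chr11:7197789-7203121) ran over all 4 exons, every intron and past the annotated end, and in replicate 3 peaks covered 95.1% of the intron bases. Peaks covered 68.1% of the intron bases in editing-deficient replicate 2, and 19.1%, 59.8% and 23.1% in the Mavs-/- libraries. The exons were almost filled in both genotypes (99.1% ± 0.38 of exonic bases in editing-deficient and 91.3% ± 5.61 in Mavs-/- liver, SD, n = 3 each). Because the level counts the whole area of a peak that touches an exon, it includes these intronic stretches, and with exonic bases in place of area the log2 difference was 0.12 (limma adjusted p = 0.307). The strongest -log10 adjusted p of an exonic peak was 25.4 to 27.7 in editing-deficient and 12.8 to 16.5 in Mavs-/- libraries. This gap was not particular to Igfbp1. Igfbp2, which was not called, had 26.7, 28.7 and 27.3 against 18.3, 16.6 and 20.9. Igfbp4, whose level was lower in editing-deficient liver, had 15.8, 16.6 and 15.4 against 14.8, 13.0 and 14.8.

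Igfbp2, which encodes a further carrier of IGFs (chr1:72824503-72852474, plus strand), was not called. It had 2842, 2348 and 2384 ppm in editing-deficient and 2290, 2226 and 2226 in Mavs-/- libraries. The groups did not overlap, with the editing-deficient libraries higher, but the log2 difference of 0.16 (SE 0.11) missed the threshold (limma adjusted p = 0.365). It passed with ranks within the library and with equal numbers of peaks (limma adjusted p = 0.0339 and 0.0321). Its first intron, however, carried peaks in 1 genotype. All 37 intronic Input peaks lay in intron 1 and all were in editing-deficient libraries, 12, 9 and 16 per replicate, whereas the Mavs-/- libraries had 0, 0 and 0. Peaks of any kind covered 13255, 4063 and 8860 intron bases in the editing-deficient libraries (50.7%, 15.6% and 33.9% of the introns) and 310, 4 and 257 in the Mavs-/- libraries. By intron bases Igfbp2 was ranked 5, 14 and 3 in the editing-deficient Input libraries and 236, 760 and 279 in Mavs-/- libraries. Ranked were the genes with any intron bases under peaks, 1697, 1846 and 1945 in editing-deficient and 1201, 1042 and 1435 in Mavs-/- libraries.

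The intronic peaks of Igfbp2 joined into 12 regions between 3.32 and 24.1 kb from the gene's start, of which 5 were found in all 3 editing-deficient libraries, 6 in 2 and 1 in a single library. The peaks were 156 to 1706 bases long (median 528). The longest (chr1:72829916-72831621) and the one of largest area (chr1:72839221-72840616, area 2451) were both in replicate 1. Intron bases were higher in every editing-deficient than in every Mavs-/- library for 336 of 3026 genes (11.1%), and for Igfbp1 and Igfbp2 among the 7 axis genes with any. The larger number of Input peaks in editing-deficient libraries moves with this count, and its part was not tested. The MDA5-protected fraction held 1 peak within intron 1 of Igfbp2 in editing-deficient replicate 2 (chr1:72831846-72831974) and 1 elsewhere in intron 1 in replicate 3 (chr1:72836231-72836326), so neither was seen in another library.

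Igfbp4 (chr11:99041244-99054392, plus strand), which encodes a binding protein that keeps IGFs from their receptor, had levels of 1762, 1701 and 1621 ppm in editing-deficient and 2569, 2539 and 2010 in Mavs-/- libraries. The groups did not overlap, with the editing-deficient libraries lower, but the log2 difference of -0.47 (SE 0.13) missed the threshold (limma adjusted p = 0.0581). Without Mavs-/- replicate 3 it passed (limma adjusted p = 0.00945). The same 4 exons carried a peak in all 6 libraries, and peaks covered 46.3% ± 0.47 and 45.9% ± 0.67 of the exonic bases (SD, n = 3 each). Per exonic kb, the mean Input level over both genotypes was 1534 ppm for Igfbp1, 1292 for Igfbp2 and 461 for Igfbp4, against 130 for Igfals and 41.9 for Igf1.

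**Figure D2:**
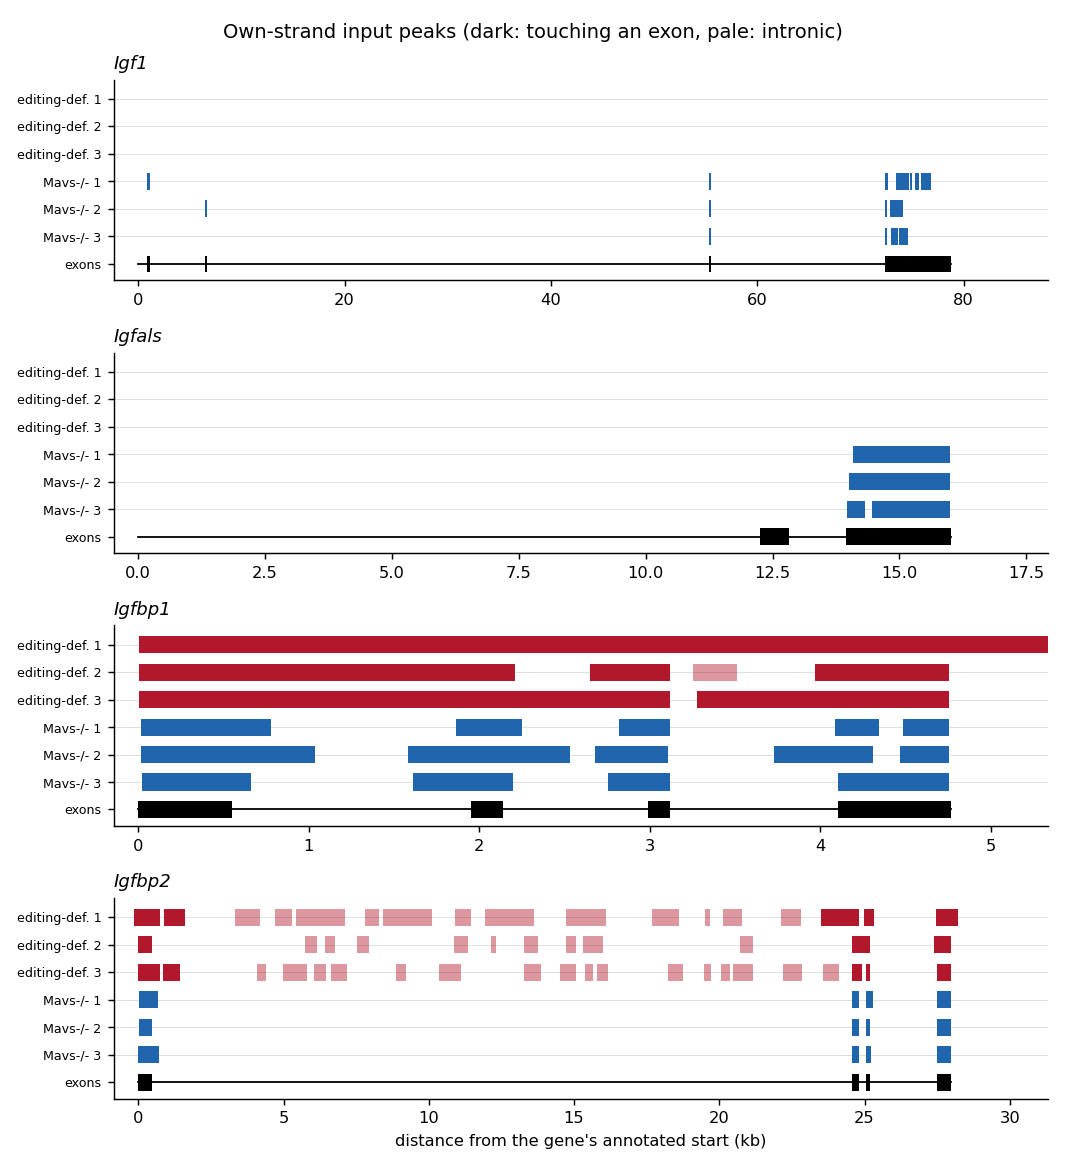
Own-strand Input peaks of Igf1, Igfals, Igfbp1 and Igfbp2 in each library against the distance from the gene's annotated start in kb, with exons of 1 reference transcript in black, peaks that touch an exon in full colour and intronic peaks pale. Igf1 and Igfals have peaks in Mavs-/- libraries (blue) only, and the pale Igfbp2 peaks, 12, 9 and 16, are in editing-deficient libraries (red) only. Short peaks and exons are drawn at a minimum width.

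The signalling genes upstream of Igf1 were near the floor of detection. Stat5b (chr11:100780731-100850724, minus strand) had Input levels of 90.8, 47.8 and 107 ppm in editing-deficient and 154, 0 and 0 in Mavs-/- libraries. Each of these levels came from 1 peak. Its log2 difference of 1.79 (SE 1.23) did not pass (limma adjusted p = 0.357). Socs2, which encodes the feedback inhibitor of the receptor (chr10:95385362-95417180, minus strand), had 77.8, 170 and 77.8 ppm in editing-deficient and 0, 0 and 184 in Mavs-/- libraries, with a log2 difference of 2.05 (SE 1.31, limma adjusted p = 0.321). For both genes the groups overlapped, and 1 Mavs-/- library carried the whole level of its group. Without that library, Mavs-/- replicate 3 for Socs2 and replicate 1 for Stat5b, the limma adjusted p was 0.00898 and 0.0247. The Mavs-/- libraries left were then all at 0, and both genes were tested only through the editing-deficient libraries. These p-values therefore give no support for a difference.

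Ghr encodes the growth hormone receptor (chr15:3317760-3583492, minus strand). It had 1 Input peak in Mavs-/- replicate 1 (94.1 ppm, coding exon 6, chr15:3340919-3341093) and 1 in replicate 3 (65.8 ppm, exon 2, chr15:3457883-3458010), and none in Mavs-/- replicate 2 or in the editing-deficient libraries. With peaks in 2 libraries it was not tested. Among genes with a peak in any library its log2 difference was -2.10 (limma adjusted p = 0.281), and a difference in Ghr transcript was not detectable in these lists.

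Of 33 other genes of the axis (receptors, kinases, phosphatases, further binding proteins and their proteases), 22 had an Input peak and 16 were tested. Of these 1 was called higher, 1 lower and 14 were not called, where 10.8% and 6.79% of all genes tested were called, and their median log2 difference was 0.98 against 0.46 for all genes tested. Igfbp3 encodes the binding protein that forms the ternary complex with IGF1 and the acid-labile subunit. It had no peak in any editing-deficient library and 277, 240 and 539 ppm in the Mavs-/- libraries, with a log2 difference of -5.09 (SE 0.57, limma adjusted p = 0.0023). Like Igf1 and Igfals it was tested only through the Mavs-/- libraries and is among the 44 of 5274 genes (0.834%) with a peak in all of these and in no editing-deficient library. IGF2 and IGFBP5 can also enter the complex. Igf2 had peaks in all 6 libraries, and Igfbp5 had 1 in editing-deficient replicate 1 alone (76.5 ppm). Foxo1, which encodes a transcription factor that insulin and IGF1 signalling keep out of the nucleus, was the gene called higher, with 63.2, 122 and 89.5 ppm in editing-deficient libraries and no peak in Mavs-/- libraries (log2 difference 3.30, SE 0.37, limma adjusted p = 0.0024). Its levels lie near the floor of 63.0 to 89.2 ppm of the Mavs-/- libraries, and it too was tested only through the group in which it had peaks. It was not called with ranks within the library (limma adjusted p = 0.222).

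The most abundant of the wider list per exonic kb were Igf2, Igfbp7 and Irs2. Igf2, the growth factor of fetal and early postnatal liver, had 5817, 3704 and 3966 ppm in editing-deficient and 6406, 6294 and 5243 in Mavs-/- libraries, which overlapped (log2 difference -0.43, SE 0.21, limma adjusted p = 0.203). Igfbp7, an IGF-binding protein-related factor, had 162, 138 and 128 against 187, 264 and 195 ppm (log2 difference -0.55, SE 0.26, limma adjusted p = 0.192). Irs2, a docking protein of the insulin and IGF1 receptors, had 1336, 1195 and 1155 against 230, 878 and 756 ppm (log2 difference 1.18, SE 0.50, limma adjusted p = 0.165). The groups did not overlap for Igfbp7 and Irs2, but neither passed the test. The share of all genes tested without overlap was not counted, so no difference is read from this.

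**Figure D3:**
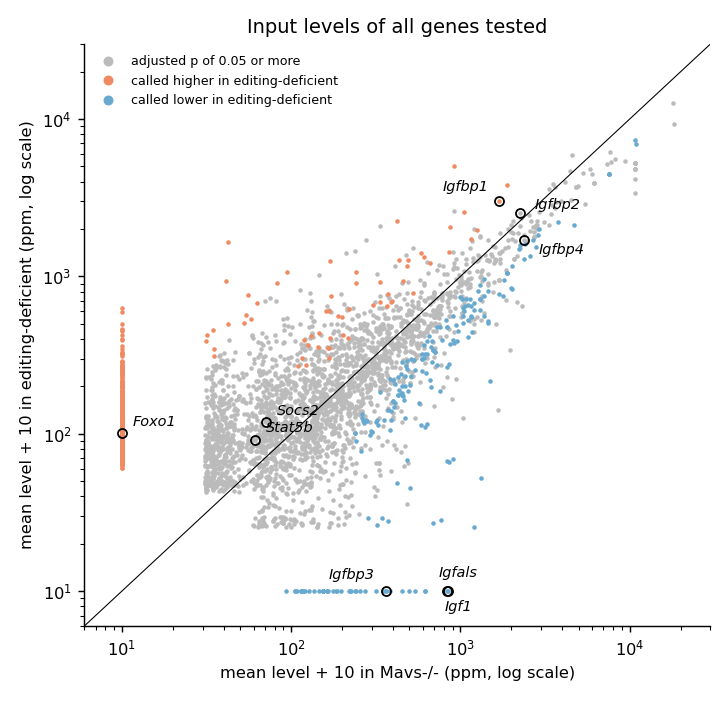
Mean Input level + 10 of each of the 3036 genes tested in editing-deficient liver against Mavs-/- liver (ppm, both axes log scale), with called genes in colour and the line of equal levels in black. Genes with no peak in a genotype lie at 10, as Igf1, Igfals and Igfbp3 do in editing-deficient and Foxo1 in Mavs-/- liver, while Igfbp1 lies above the line among the called genes.

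The genes whose Input levels were most like those of Igf1 over the 6 libraries, among 1319 genes with a peak in all of them, were Ppp1r13b (Pearson r = 0.989), H2afv (0.988) and Gm12896 (0.986). For Ghr they were Mir6972 (0.979), Sdhd (0.960) and Plxnb2 (0.948). The 6 points are the same libraries in each case and fall into both genotypes, so these values describe shared differences between libraries.

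After digestion, Ghr was the gene of the 9 with the most bases under peaks, all of them intronic. Together the RNase-only and MDA5-protected libraries held 128 own-strand intronic Ghr peaks, which joined into 11 regions. RNase only leaves RNA that resists digestion on its own, such as paired stretches, and the MDA5-protected fraction was meant to add what the sensor covers. Its lists were nonetheless shorter. They held 1636 to 2868 peaks against 5605 to 6094 RNase-only peaks in editing-deficient libraries. In Mavs-/- libraries they held 1180 to 1829 against 3150 to 5572. Peaks of both fractions had been called against Input of the same genotype. Most peaks lay in 3 clusters within intron 1, the long first intron. The largest cluster spanned 4674 bases at 63.2 to 67.8 kb from the gene's start (chr15:3515662-3520335, 53 peaks). A second spanned 2443 bases at 28.1 to 30.5 kb (chr15:3552949-3555391, 29 peaks), and a further one 1283 bases at 55.1 to 56.4 kb (chr15:3527134-3528416, 23 peaks). In intron 3 a region of 1156 bases at 199.7 to 200.8 kb held 9 peaks (chr15:3382686-3383841). Of the 11 regions 2 had a peak in all 6 MDA5-protected libraries, those at 28.1 and 55.1 kb, and 4 had a peak in a single library. The cluster at 63.2 kb lacked a peak in editing-deficient replicate 1 in both fractions.

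In the MDA5-protected libraries, peaks covered 649, 3152 and 2905 intron bases of Ghr in editing-deficient and 6745, 6464 and 2170 in Mavs-/- liver. These came from 2, 9 and 9 and from 19, 17 and 7 peaks, respectively. Mavs-/- replicates 1 and 2 lay above all others, while replicate 3 fell among the editing-deficient libraries. The means were 2235 ± 1379 and 5126 ± 2564 bases (SD, n = 3 each), a difference of -2891 bases. The groups overlapped, and exact permutation of the libraries gave a two-sided p of 0.30, where 3 against 3 cannot give less than 0.10. Intron bases lower in every editing-deficient library were found for 12 of 1301 genes (0.922%), and Ghr was not among them.

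As a share of all bases under MDA5-protected peaks of the library, Ghr introns made up 0.179%, 0.489% and 0.439% in editing-deficient and 1.41%, 2.56% and 1.03% in Mavs-/- libraries. Here the groups did not overlap (exact permutation, two-sided p = 0.10, which is the lowest these numbers allow). This scaling was chosen after the data had been seen, and 43 of 1301 genes (3.31%) had a share lower in every editing-deficient library. The MDA5-protected lists held 1636 to 2868 peaks in editing-deficient and 1180 to 1829 in Mavs-/- liver, and the part of this difference in the share was not tested. By MDA5-protected intron bases Ghr was ranked 75, 19 and 20 in editing-deficient and 7, 3 and 9 in Mavs-/- libraries. Ranked were the genes with any such bases, 557, 826 and 839 in editing-deficient and 494, 301 and 327 in Mavs-/- libraries, so the lists differ in length.

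Without MDA5 the same 3 clusters carried peaks. RNase-only peaks covered 155, 3173 and 3912 intron bases of Ghr in editing-deficient and 5062, 4677 and 1029 in Mavs-/- libraries, from 1, 10 and 13 and from 21, 16 and 4 peaks. The groups overlapped, and the difference of -1176 bases was within the spread (exact permutation, two-sided p = 0.50). Without editing-deficient replicate 1 it was -46.8 bases. In that replicate the only own-strand RNase-only peak lay in intron 6 (chr15:3339218-3339389), a region that had a peak in 3 editing-deficient and 2 Mavs-/- RNase-only libraries and in no MDA5-protected one. Opposite-strand RNase-only peaks of Ghr were listed in 5 of the 6 RNase-only libraries. All of these overlapped the intron 6 region, so peaks there were listed on both strands. The MDA5-protected lists had no opposite-strand peak of Ghr.

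Many MDA5-protected peaks of Ghr lay where RNA resisted RNase without MDA5. Of the MDA5-protected Ghr peaks, 14 of 19, 15 of 17 and 6 of 7 in the Mavs-/- libraries overlapped an RNase-only peak of the same genotype, and 1 of 2, 4 of 9 and 6 of 9 did in the editing-deficient libraries. With RNase-only bases subtracted, 278, 1645 and 1335 bases were left in editing-deficient and 2396, 1892 and 381 in Mavs-/- libraries (exact permutation, two-sided, p = 0.50). After replicates were joined and only peaks within 200 bp of one in another replicate were kept, 4 MDA5-protected Ghr peaks (1454 bases) were left in editing-deficient and 10 (2929 bases) in Mavs-/- liver. Of these 1 peak of 38 bases was unique to editing-deficient, 8 peaks (1957 bases) were unique to Mavs-/- liver, and 5 stretches (920 bases) were common to both. Over the whole series the paper reports the other order, with more peaks unique to editing-deficient than to Mavs-/- liver. How often a single gene shows a split like that of Ghr was not counted, so no difference is read from it. The longest MDA5-protected Ghr peak, which also had the largest area, was in Mavs-/- replicate 2 (chr15:3515680-3516719, 1040 bases). The largest by area among RNase-only peaks was in Mavs-/- replicate 1 (chr15:3527145-3527544, 400 bases) and the longest in Mavs-/- replicate 2 (chr15:3519022-3519673, 652 bases).

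**Figure D4:**
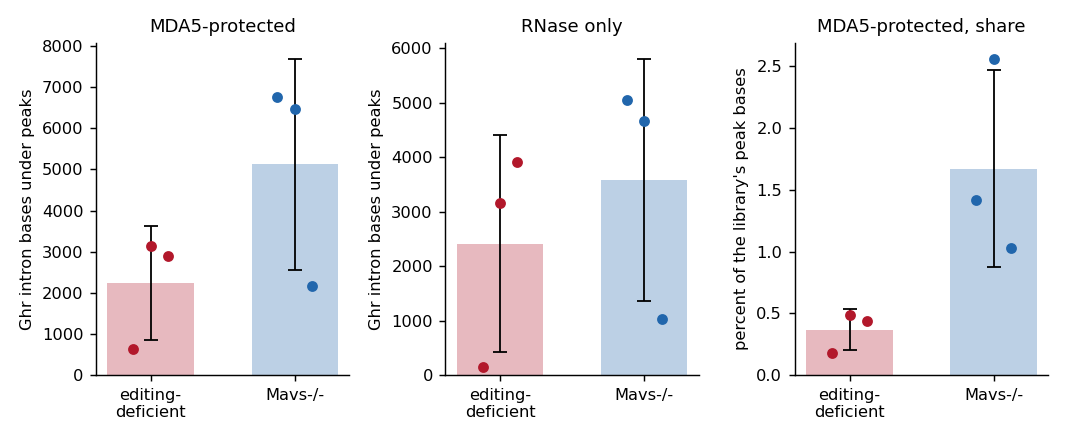
Intron bases of Ghr under MDA5-protected peaks (left) and RNase-only peaks (middle), and the MDA5-protected bases as a percent of all bases under peaks of the library (right), with points for libraries, bars for means and error bars for the SD of 3 libraries. The groups overlap in the left and middle panels and do not in the right one, where editing-deficient libraries lie at 0.179% to 0.489% and Mavs-/- libraries at 1.03% to 2.56%.

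Stat5b and Socs2 contributed few digested peaks. At the annotated first exon of Stat5b an MDA5-protected peak was listed in Mavs-/- replicate 2 (chr11:100850405-100850633) and in editing-deficient replicate 3 (chr11:100850334-100850630), and these overlapped. Just beyond it, within the first intron, lay an MDA5-protected peak of editing-deficient replicate 3 (chr11:100850225-100850291) and an RNase-only peak of replicate 2 (chr11:100850236-100850309). Deeper in that intron, 14.6 kb from the gene's start, RNase-only peaks of editing-deficient replicate 3 (chr11:100836006-100836126) and of Mavs-/- replicate 1 (chr11:100836029-100836131) overlapped. Socs2 had 1 RNase-only peak, in the 3′ UTR, in editing-deficient replicate 1 (chr10:95411527-95411743). With at most 1 library of a genotype at any one of these places in a fraction, the peaks could not be compared between genotypes. RNase-only levels over exons were tested for 1216 genes, none of the 9 among them, and limma called 0 genes at an adjusted p under 0.05, with 56 at an unadjusted p under 0.05.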

How the data were processed

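Libraries were assigned to a genotype and fraction by their labels, and none was left out. The authors used Trim Galore 0.6.6 on single-end reads of 75 bp, NextGenMap for alignment to GRCm38 and Genrich 0.6.1 for peaks on each strand (adjusted p at most 0.01, area at least 500, gap at most 20 bp), with Input of the same genotype as control of the digested libraries. The deposited score of a peak is the area under its significance curve. The deposited significance columns hold p-values and adjusted p-values on a -log10 scale. The lists give no read counts, so depth is unknown and no counting interval is given.

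Peaks were assigned to GENCODE M21 genes on their own strand (Python 3.11.15, pandas 2.3.3, scipy 1.17.1). Levels were fitted with limma 3.58.1 (R 4.3.3, trend) and Benjamini-Hochberg adjustment, and Ghr intron bases were compared by two-sided exact permutation tests. The study's methods state no test between genotypes per gene. The fits were also run on simulated normal values with the same spread for all genes and no area floor. Such data cannot speak for genes without a peak in a genotype. RNase-only regions supported within 200 bp by another replicate were subtracted, and pieces under 10 bp were dropped.

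The genes and lists were chosen with earlier results of these data known. Named were the 9 genes, the axis genes called or among the 3 highest per exonic kb, Adar and Mavs, the 3 genes most like Igf1 and Ghr, and intronic peaks found in at least 2 libraries of a genotype and fraction or the longest or largest of a gene. Alternatives were the pseudocount, filters, scalings, bases in place of area, a minimum area of 1000, the middle base of a peak, peaks on either strand, the replicate block and each library left out. Intronic peak sequences were not analysed here.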

Additional observations from a re-analysis of the deposited data

How the results depend on the processing

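The number of genes called in Input was 535 and ranged from 401 to 877 with each library left out, 877 being without Mavs-/- replicate 3. It was 324 among genes with a peak in all 6 libraries, where 76 were higher and 248 lower, whereas 329 were higher and 206 lower otherwise. The split was 188 to 228 with ranks within the library, 170 to 203 when each library was held to the same number of peaks and 335 to 52 with exonic bases. The median log2 difference of all genes moved from 0.46 to 0.61 when centred on the median gene and to -0.03 with ranks, and Igf1, Igfals and Igfbp1 kept their direction under both. The RNase-only count of 0 became 5 among genes with a peak in any library. Under the alternatives Igfbp1 reversed to -5.04 (limma adjusted p = 0.111) and Igfbp2 to -0.19 when the middle base of a peak had to lie in an exon, since long peaks over introns then no longer count. Igfbp4 reversed to 0.0104 with exonic bases in place of area, and Stat5b to -0.0043 with ranks, and the cause was not tested. Igfbp4 was called without Mavs-/- replicate 3 and at a minimum area of 1000 (limma adjusted p = 0.00945 and 0.0223), and Igfbp2 with ranks and with equal numbers of peaks (limma adjusted p = 0.0339 and 0.0321). The difference in MDA5-protected Ghr bases ranged from -4369 to -2082 and in RNase-only bases from -2456 to -46.8 with each library left out. The correlations of deviations of same-numbered replicates were 0.025, -0.025 and 0.059 in Input and 0.147, 0.062 and 0.099 in RNase-only libraries, so the numbers were not taken to pair the samples. In the RNase-only libraries every sample correlated best with its own number, which is a hint from the data and not from the design. With the replicate number as a block 454 genes were called, Igfbp1 no longer among them (limma adjusted p = 0.0603), and the exact sign-flip p of Ghr was 0.50 and 0.75 for MDA5-protected and RNase-only bases, where 3 pairs allow none under 0.25. The peak lists limit what can be seen at low levels, since a gene below the area minimum has no value.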
